A study of Rattus norvegicus and Bos taurus with 6 samples.

Results

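This section describes 10 genes of the immediate early response, Fos, Fosb, Jun, Junb, Jund, Egr1, Atf3, Ier2, Nr4a1 and Btg2, in nuclei from frozen adipose tissue. They were chosen by symbol, in any letter case, out of 38697 genes in the rat Parse gene table. All 10 are listed for the 5 Parse libraries, and 9 of them, all but Junb, for the library made on the 10x Genomics platform. The study set up nuclei isolation from white fat and sequenced 6 libraries, 1 per condition. Of these, 5 came from male Dahl SS rats (SS/HsdMcwiCrl) with a normal health status, kept at 22 °C and given pentobarbital before the fat was taken. They are mesenteric perivascular adipose tissue (mesPVAT), run once on 10x and once on Parse, and, on Parse, retroperitoneal (RP) fat, PVAT of the thoracic aorta (taPVAT) and brown fat from below the scapula (BAT). The sixth is subcutaneous white fat (cow WAT) from the flank of lactating Holstein cattle, also on Parse. The labels mark mesPVAT, RP fat and cow WAT as white and taPVAT and BAT as brown. Ages, and how many animals entered a library, are not given in the sources used here.

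Immediate early genes are transcribed within minutes of a stimulus, from factors such as SRF and CREB that already sit in the cell, without new protein synthesis. Fos, Fosb, Jun, Junb and Jund encode the subunits of the dimeric transcription factor AP-1. Egr1 encodes a zinc finger transcription factor, Atf3 a stress-induced bZIP factor, Nr4a1 an orphan nuclear receptor, Btg2 an antiproliferative cofactor and Ier2 a small nuclear protein. The same genes are known to be switched on by handling and dissociation of tissue, and Nr4a1 is also known as a target of cAMP signalling in brown fat. All tissue was snap frozen before nuclei were isolated. Before freezing, rat tissue was dissected into physiological salt solution and cleaned of blood, and PVAT was removed from the aorta or mesenteric vessels. Induction of these genes during that handling was not tested.

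The 6 libraries held between 845316 and 16827260 UMIs (counted RNA molecules) in 2297 to 5887 nuclei. The median was 161 UMIs per nucleus in 10x mesPVAT, 346 in Parse mesPVAT, 213 in RP fat, 3530 in cow WAT, 1246 in taPVAT and 1706 in BAT. The median number of genes per nucleus was 304 in Parse mesPVAT and 197 in RP fat. The study places these depots in the opposite order by genes per nucleus, so the labels of this pair of Parse libraries are in doubt. They were kept as given, and the files used here do not settle which is right. Wherever Parse mesPVAT or RP fat is named, the library with that label is meant. Values with the pair exchanged stand beside the main comparisons of the 10 genes. They are not given for the gene lists and gene spans of the 10x comparison, which would also change. White against brown pools the pair and does not depend on which label is right. No barcode was shared between any pair of libraries. Parse barcodes name wells and 10x barcodes have another form, so this says nothing about independence or the labels in doubt. With 1 library per condition no test between conditions was possible. Each level is a gene's UMIs in the whole library per 1000000 UMIs of that library (CPM), and each interval in brackets is a 95% interval that covers counting error only and not differences between animals. A lower CPM in a library cannot be told apart from a smaller share of nuclei of the cells that hold the transcript. Further markers, 5 per class (3 listed for cow adipocytes), were checked in nuclei with exactly 1 of the 4 class markers Plin1, Ptprb, Pdgfra and Ptprc. Those for adipocytes were highest in Plin1-only nuclei in every library. Of 20 markers for 4 classes, 14 (RP fat) to 20 (10x mesPVAT and taPVAT) were highest in their own class in rat. In cow WAT it was 17 of the 18 listed. In RP fat 3 of 5 stromal markers and only 1 of 5 immune markers were highest in their own class. There Csf1r, Mrc1 and Ikzf1 measured 0 CPM in Ptprc-only nuclei. These 54 nuclei held only 23375 UMIs, so that 1 UMI amounts to 42.8 CPM, the level of Cd74, and the zeros lie at the floor.

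The 10 genes stood apart in one library. Together they reached 6941 CPM (6795 to 7090) in 10x mesPVAT, 199.8 CPM (179 to 223) in Parse mesPVAT, 451 CPM (407 to 498) in RP fat, 391 CPM (381 to 400) in cow WAT, 432 CPM (414 to 451) in taPVAT and 439 CPM (423 to 456) in BAT. Among the Parse libraries RP fat, BAT and taPVAT could not be ordered, cow WAT lay slightly below them, and the library labelled mesPVAT was the lowest, which would be RP fat if the pair were exchanged. This order depended on Nr4a1, which held 49.3% of these UMIs in BAT, 47.7% in taPVAT, 18.4% in RP fat and 9.49% in cow WAT. Without Nr4a1, RP fat at 368 CPM (328 to 411) and cow WAT at 353 CPM (345 to 363) lay above both brown libraries. On the same count taPVAT had 226 CPM (213 to 239), BAT 222 CPM (211 to 234) and Parse mesPVAT 183 CPM (163 to 205). The 1% of nuclei with the most UMIs of the 10 genes held 29.1% of them in RP fat and 24.2% in Parse mesPVAT. This share was 16.2% in cow WAT, 12.4% in taPVAT, 11.9% in BAT and 7.99% in 10x mesPVAT. Only 9.48% of nuclei in RP fat and 8.88% in Parse mesPVAT held any such UMI, which by itself raises the share. Without the top nuclei the summed level was 331 CPM in RP fat and 159.9 CPM in Parse mesPVAT. They were picked by the same UMIs, so a fall was largely built in.

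**Figure D1:**
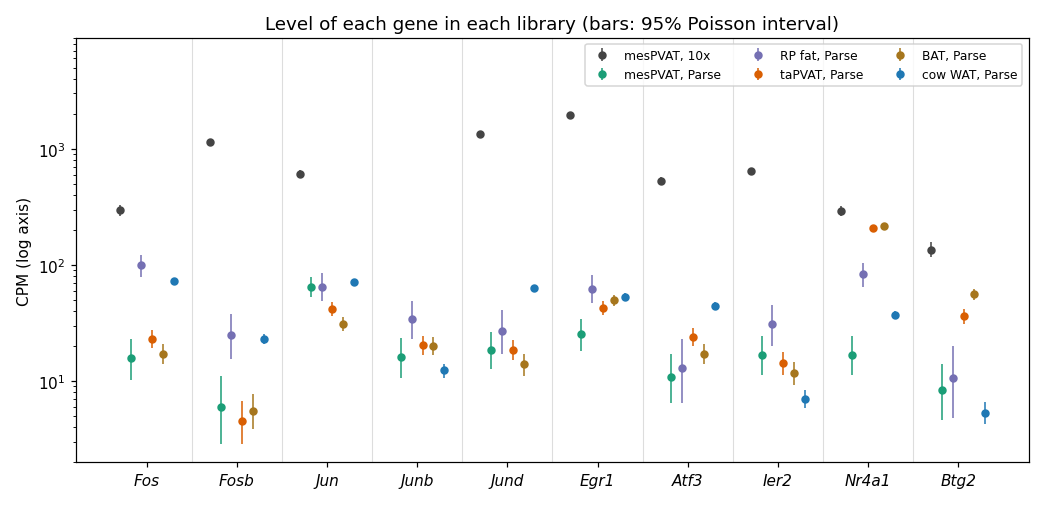
Level of each of the 10 genes (horizontal axis) in CPM on a log axis, 1 point per library with its 95% Poisson interval; Junb has no 10x point because it is not listed there. The 10x mesPVAT points lie above those of the 5 Parse libraries for all 9 genes listed, and Nr4a1 and Btg2 are highest among Parse libraries in taPVAT and BAT.

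Of the Fos genes, Fos measured 296 CPM in 10x mesPVAT, 15.7 CPM in Parse mesPVAT, 99.4 CPM in RP fat, 72.9 CPM in cow WAT, 23.1 CPM in taPVAT and 17.3 CPM in BAT. Fosb, which needs a Jun partner to bind DNA as Fos does, measured 1151 CPM, 6.04 CPM, 24.8 CPM, 23.2 CPM, 4.51 CPM and 5.54 CPM in the same order. Both genes were thus high in RP fat and cow WAT among the Parse libraries, with intervals that did not overlap those of mesPVAT, taPVAT and BAT for Fos. For Fosb, RP fat and cow WAT could not be told apart from each other.

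The Jun genes, which can pair with Fos proteins or among themselves, had no common order. Jun measured 612 CPM in 10x mesPVAT, 64.6 CPM in Parse mesPVAT, 65.1 CPM in RP fat, 71.9 CPM in cow WAT, 41.8 CPM in taPVAT and 31.0 CPM in BAT. Jund, known for steady expression in resting cells, measured 1335 CPM, 18.7 CPM, 27.2 CPM, 62.8 CPM, 18.6 CPM and 13.9 CPM in the same order. Junb measured 16.3 CPM in Parse mesPVAT, 34.3 CPM in RP fat, 12.4 CPM in cow WAT, 20.4 CPM in taPVAT and 20.1 CPM in BAT, and the intervals of neighbours by level overlapped. Jun in the 3 white Parse libraries exceeded taPVAT, which in turn exceeded BAT.

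Egr1 measured 1957 CPM in 10x mesPVAT, 25.4 CPM in Parse mesPVAT, 62.7 CPM in RP fat, 53.5 CPM in cow WAT, 42.7 CPM in taPVAT and 49.5 CPM in BAT. Atf3 measured 526 CPM, 10.9 CPM, 13.0 CPM, 44.4 CPM, 24.1 CPM and 17.3 CPM in these libraries. Ier2 measured 638 CPM, 16.9 CPM, 30.8 CPM, 7.07 CPM, 14.3 CPM and 11.7 CPM. Parse mesPVAT had the lowest Egr1, and cow WAT had the highest Atf3 and the lowest Ier2 of the Parse libraries. The 10x and rat Parse tables carry Ier2 under different gene identifiers, so its reads may have been collected over different models.

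A different order held for Nr4a1 and Btg2. Nr4a1 measured 291 CPM in 10x mesPVAT, 16.9 CPM in Parse mesPVAT, 82.8 CPM in RP fat, 37.1 CPM in cow WAT, 206 CPM in taPVAT and 217 CPM in BAT. Btg2 measured 136 CPM, 8.45 CPM, 10.6 CPM, 5.35 CPM, 36.3 CPM and 56.0 CPM. Both brown libraries were above all 3 white Parse libraries for both genes, with intervals apart. The 2 sublibraries of each Parse sample, which share its nuclei isolation, gave close values for Nr4a1, 206 CPM and 207 CPM in taPVAT and 219.6 CPM and 213 CPM in BAT.

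RefSeq promoters, 250 bases before to 50 after the start in GRCr8, were available for 7 of the 10 genes, and there was no entry for Fos, Jun or Atf3. Both strands were searched for the cAMP response element TGACGTCA (CRE), its core TGACG, the AP-1 site TGANTCA, and the CArG box bound by SRF. A full CRE also counts as 2 overlapping cores. The CRE was found in 3 of the 7 (Jund, Ier2 and Btg2) and in 1.83% of 33365 promoters of this length, the core in 6 of 7 and in 21.2%, the AP-1 site in 0 of 7 and in 7.34%, and the CArG box in 1 of 7 (Egr1) and in 1.63%. Matches of letters are a description and no evidence of binding here. The promoters of the pair of genes high in brown fat and of Egr1, which differ in their class pattern below, are shown 5′ to 3′ on the gene's strand, with CRE, core (TGACG or CGTCA) and CArG matches in capitals. Nr4a1 holds 4 separate cores, Btg2 a full CRE, and Egr1 2 cores and 2 CArG boxes.
Nr4a1, chr7:134259888-134260187, plus strand: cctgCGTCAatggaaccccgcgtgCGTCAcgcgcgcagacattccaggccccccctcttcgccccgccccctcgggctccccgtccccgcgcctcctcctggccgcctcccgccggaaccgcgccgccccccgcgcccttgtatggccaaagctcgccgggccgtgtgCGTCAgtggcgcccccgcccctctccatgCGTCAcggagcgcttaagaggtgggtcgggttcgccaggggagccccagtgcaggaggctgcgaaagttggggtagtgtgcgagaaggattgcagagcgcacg
Btg2, chr13:48087641-48087940, minus strand: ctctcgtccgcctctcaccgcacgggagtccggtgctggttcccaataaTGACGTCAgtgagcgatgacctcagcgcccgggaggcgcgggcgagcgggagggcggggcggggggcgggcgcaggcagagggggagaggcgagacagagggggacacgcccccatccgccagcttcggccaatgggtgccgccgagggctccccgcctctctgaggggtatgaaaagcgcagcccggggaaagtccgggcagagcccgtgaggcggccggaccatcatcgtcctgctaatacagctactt
Egr1, chr18:26736828-26737127, plus strand: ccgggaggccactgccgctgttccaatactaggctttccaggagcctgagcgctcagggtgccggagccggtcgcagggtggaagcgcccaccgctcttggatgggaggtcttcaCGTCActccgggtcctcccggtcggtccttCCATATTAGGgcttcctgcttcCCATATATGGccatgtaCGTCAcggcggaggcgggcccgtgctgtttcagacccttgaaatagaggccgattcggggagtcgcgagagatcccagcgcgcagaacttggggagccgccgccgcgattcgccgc

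The first comparison set the 10x library of mesPVAT against the Parse library of mesPVAT. All 9 genes in both tables were at least 2-fold higher on 10x, where 22.7% of 12510 genes tested (those with at least 20 UMIs over both libraries) were that much higher and 32.9% that much lower. The 10x over Parse ratio was 191 for Fosb (103 to 399), 77.2 for Egr1 (56.9 to 107), 71.3 for Jund (50.1 to 105), 48.4 for Atf3 (30.4 to 82.2) and 37.7 for Ier2 (25.9 to 57.1). It was smaller but still large for Fos at 18.8 (12.7 to 29.2), Nr4a1 at 17.2 (11.7 to 26.3), Btg2 at 16.1 (9.31 to 30.0) and Jun at 9.47 (7.73 to 11.7). The summed level of the 9 genes differed 37.8-fold (33.7 to 42.6), against a median ratio of 0.906 over all genes tested. Only 0.0480% of genes had a higher ratio than Fosb, and 2.93% a higher one than Jun. Set against the Parse library labelled RP fat instead, all 9 genes were again at least 2-fold higher on 10x, as were 29.7% of 11448 genes tested, with a median ratio of 1.11. The summed ratio was then 16.7 (15.0 to 18.6), and single ratios ran from 2.98 for Fos (2.34 to 3.82) and 3.51 for Nr4a1 (2.71 to 4.61) to 46.4 for Fosb (30.2 to 75.1) and 49.1 for Jund (32.6 to 77.6).

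The difference was present in each class of nuclei. Classes were nuclei with a UMI of exactly 1 of Plin1 (lipid droplet coat of adipocytes), Ptprb (endothelial phosphatase), Pdgfra (receptor of stromal progenitors) and Ptprc (CD45 of leukocytes). In Plin1-only nuclei the summed level was 6504 CPM (6151 to 6873) on 10x and 117 CPM (85.3 to 156) on Parse. In Ptprb-only nuclei it was 5314 CPM on 10x and 281 CPM on Parse. Pdgfra-only nuclei gave 6045 CPM and 268 CPM, and Ptprc-only nuclei 3803 CPM and 177 CPM. No pair of intervals overlapped. The 10x classes shared adipocyte transcripts, though all 5 adipocyte markers were highest in Plin1-only nuclei. Adipoq measured 1075 CPM in Plin1-only, 804 CPM in Ptprb-only, 91.6 CPM in Pdgfra-only and 550 CPM in Ptprc-only nuclei. Lipe measured 4420 CPM, 1433 CPM, 412 CPM and 1051 CPM in the same order. RNA shared between barcodes was not tested for, so the classes are not separate observations of cell types. The Parse library labelled RP fat gave 379 CPM, 620.2 CPM, 546 CPM and 513 CPM in the same classes, also with intervals below those of 10x. Its Ptprc-only nuclei were not shown to be leukocytes, as only 1 of 5 immune markers was highest in them and the counts there were too small to decide.

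Genes at least 2-fold higher on 10x were more frequent in each list around the 10 genes than the 22.7% among all genes tested. Among all genes 32.9% were that much lower, and the median ratio was 0.906. Of 24 other immediate early genes tested, 20 were at least 2-fold higher on 10x and 3 lower, with a list median ratio of 7.07. The largest ratios were those of Zfp36 at 382, a protein that destabilises AU-rich mRNAs, Ccn1 at 77.5, a matricellular protein, and Csrnp1 at 52.5. The 3 lower were Rhob, with no UMI on 10x against 79 on Parse, Fosl1 with 3 UMIs and a ratio of 0.236 (0.0444 to 0.817), and Nr4a3 with a ratio of 0.415. The Fosl1 ratio used 17 Parse UMIs, from the entry joined between platforms, while 22 were counted under that symbol in Parse mesPVAT. Of 10 heat shock and chaperone genes, 7 were at least 2-fold higher and 0 lower, led by Hspa1b (ratio 24.9), Hspb1 (10.2) and Hspa5 (10.0). Their list median ratio was 6.04. Of 17 regulators upstream of the immediate early genes, 8 were higher and 2 lower, with a list median ratio of 1.85. Srf had a ratio of 4.16, Crem of 3.30 and Mapk14 of 2.95, against 0.256 for Elk3 and 0.372 for Mrtfb. All ratios of these lists use the Parse library labelled mesPVAT and would change if the pair were exchanged.

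Several other measures moved with this difference, and their part in it was not tested. The 10x and Parse libraries differ in kit, gene annotation and batch (1 and 2 in the labels). By the supplement, which was followed here, they also differ in nuclei isolation and DAPI sorting. The protocol in the labels differs from the supplement on the nuclei isolation of the 10x library. The parts of kit, annotation, batch, isolation and sorting cannot be told apart. Most of the 10 genes are short. Of all genes spanning under 5 kb, 55.4% were at least 2-fold higher on 10x with a median ratio of 2.53, against 11.8% and 0.658 for genes of 50 kb and over. Atf3 spans 57551 bases, with a ratio of 48.4, and Nr4a1 spans 20892 bases, with a ratio of 17.2. The RefSeq promoter of Nr4a1 shown above lies inside this span, so the sources place its start differently. Summed markers of other cells also differed. The 5 mesothelial markers (4 listed for 10x) had 870 CPM on 10x and 88.1 CPM on Parse, and 5 pericyte markers 141 CPM and 996 CPM. Msln (566 and 13.9 CPM) and Wt1 (280 and 47.7 CPM) carried the mesothelial sum. Upk3b (13.7 and 14.5 CPM) and Lrrn4 (10.5 and 7.85 CPM) were near even. The library labelled RP fat had 55.6 CPM of the mesothelial and 752 CPM of the pericyte markers.

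**Figure D2:**
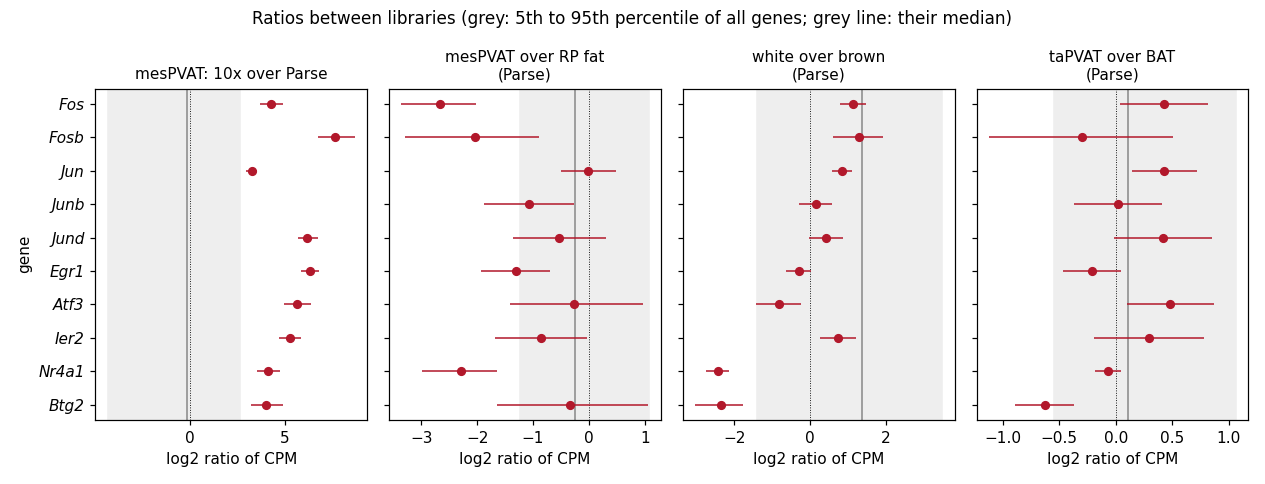
Log2 ratio of CPM for each gene (rows) in 4 comparisons (panels), with 95% intervals for counting error; the grey band spans the 5th to 95th percentile of all genes tested and the grey line is their median. All 9 genes lie right of the band for 10x over Parse, Fos, Fosb, Nr4a1 and Egr1 lie left of it for mesPVAT over RP fat, Nr4a1 and Btg2 lie left of it for white over brown, and 9 of 10 lie inside it for taPVAT over BAT.

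The libraries labelled mesPVAT and RP fat compare 2 white depots on 1 platform, and the same mesPVAT library served above. With the labels in doubt, the direction between the depots is open to exchange, which would turn every ratio here into its inverse, 6.33 (4.04 to 10.2) for Fos and 2.26 (1.94 to 2.62) for the summed level. None of the 10 genes was 2-fold higher in mesPVAT and 5 were 2-fold lower, against 5.88% higher and 9.79% lower among all 18507 genes tested. The ratio of mesPVAT over RP fat was 0.158 for Fos (0.0976 to 0.248), 0.204 for Nr4a1 (0.127 to 0.321), 0.243 for Fosb (0.102 to 0.539), 0.404 for Egr1 (0.263 to 0.618) and 0.475 for Junb (0.271 to 0.831). Fos and Nr4a1 were among the lowest ratios of all, with 99.96% and 99.86% of genes above them. Jun, at 0.993 (0.711 to 1.40), did not differ beyond counting error, and neither did Jund, Atf3 or Btg2, while Ier2 was lower at 0.549 (0.311 to 0.975). Adipocyte markers moved with these genes in the other direction, at 1510 CPM in mesPVAT and 480.3 CPM in RP fat for 5 of 5 listed, and their part was not tested. Under median-of-ratios scaling, which moved the log2 median of all genes from -0.25 to 0.12 and the higher share of 2-fold calls from 37.6% to 80.6%, Fos (0.204), Nr4a1 (0.264) and Fosb (0.315) stayed past 2-fold while Egr1 (0.524) and Junb (0.615) did not.

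The Fos difference was seen in both sublibraries, which share each sample's nuclei isolation and are not replicates. Fos measured 13.9 CPM and 17.6 CPM in sublibraries 1 and 2 of mesPVAT and 111 CPM and 84.6 CPM in those of RP fat. Nr4a1 measured 13.9 CPM and 20.1 CPM in mesPVAT and 77.3 CPM and 90.0 CPM in RP fat. Counts behind these values were small, with 26 Fos UMIs in 25 nuclei of mesPVAT and 84 in 69 nuclei of RP fat. Among 19 other immediate early genes tested, 4 were at least 2-fold higher in mesPVAT, including Myc (2.89), Klf10 (2.55, 0.855 to 10.3) and Klf2 (2.41), and 3 were lower, Ccn1 (0.283), Nr4a3 (0.435) and Sgk1 (0.482). The heat shock gene Hspa1b was also lower in mesPVAT (0.215, 0.112 to 0.395), whereas Hspd1, a mitochondrial chaperone, was higher (3.06) and the other 6 tested stayed within 2-fold. Of 18 upstream regulators 1 passed 2-fold, Map2k2 at 2.93.

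White over brown compared mesPVAT and RP fat together with taPVAT and BAT together, all on Parse and all used in the other Parse comparisons. Of the 10 genes, Fos (2.21, 1.74 to 2.79) and Fosb (2.44, 1.52 to 3.84) were 2-fold higher in white, and Nr4a1 (0.185, 0.149 to 0.226) and Btg2 (0.195, 0.122 to 0.295) were 2-fold lower. The other ratios were 1.81 for Jun, 1.68 for Ier2, 1.35 for Jund, 1.11 for Junb, 0.816 for Egr1 and 0.570 for Atf3. Among 24063 genes tested 54.5% were 2-fold higher in white and 8.98% lower, and the median ratio was 2.59. Fos and Fosb lay below that median, and Nr4a1 and Btg2 far under it. Genes with a known span had lower medians, 1.08 under 5 kb, 1.25 from 5 to 50 kb and 1.43 for 50 kb and over. Of those under 5 kb, 27.2% were 2-fold higher and 19.3% lower. Fos (2867 bases) and Fosb (7183 bases) lay above the median of their span group, and Nr4a1 and Btg2 below theirs. Under median-of-ratios scaling the log2 median fell from 1.37 to -0.68 and the higher share of 2-fold calls from 85.8% to 26.3%. On that scale Fos (0.533) and Fosb (0.587) turned to the brown side, and Nr4a1 (0.0445) and Btg2 (0.0469) kept theirs, as all 10 ratios were then under 1. The 2 genes lower in white stayed past 2-fold with each library left out in turn, Nr4a1 at 0.0797 to 0.391 and Btg2 at 0.164 to 0.253. Fos did not keep its direction, at 0.789 (0.505 to 1.19) without RP fat and 5.00 (3.84 to 6.45) without mesPVAT, and Fosb was 1.19 (0.541 to 2.34) without RP fat.

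Nr4a2 was lower in white beside Nr4a1. Among 27 other immediate early genes tested, 5 were at least 2-fold lower in white, led by Nr4a2 (0.0486, 0.0296 to 0.0753), another receptor of the NR4A family, Dusp1 (0.236), a MAP kinase phosphatase, and Egr3 (0.268), and 3 were higher, Egr2 (3.22), Gadd45b (2.68) and Ier3 (2.03, 0.763 to 4.90). Hspa1b stood out among 11 heat shock genes with a ratio of 14.5 (8.28 to 26.7), while 5 were at least 2-fold lower, among them Hspd1 (0.277), Dnaja1 (0.360) and Hspe1 (0.375). Of 18 upstream regulators 0 were higher and 7 lower, led by Atf2 (0.287), Elk1 (0.317) and Crem (0.367), the last a cAMP-responsive repressor and activator. Median-of-ratios scaling turned Egr2, Gadd45b and Ier3 to the brown side but not Hspa1b. Depth and cell mix moved with the white and brown labels. Centrifugation speed differed between taPVAT and the white rat depots, and the study gives none for BAT. The part of these 3 factors was not tested. Ucp1, Cidea and Ppargc1a, markers of brown adipocytes, summed to 309 CPM in mesPVAT, 412 CPM in RP fat, 3221 CPM in taPVAT and 3756 CPM in BAT.

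In the brown pair all 10 genes lay within 2-fold. Of the 10 genes 0 were 2-fold higher in taPVAT than in BAT and 0 lower, against 5.97% higher and 1.1% lower among 18696 genes tested. Ratios of taPVAT over BAT ran from 0.647 for Btg2 (0.539 to 0.776) to 1.40 for Atf3 (1.07 to 1.83), and the summed ratio was 0.985 (0.931 to 1.04). For Btg2, 96.4% of genes had a higher ratio. Under median-of-ratios scaling the higher share of 2-fold calls moved from 84.5% to 69.0%, with 0 of the 10 genes past 2-fold. Egr3 was lower in taPVAT (0.281, 0.168 to 0.450), while Ccn2 (3.38), a matricellular protein, and Socs3 (3.14), an inhibitor of cytokine signalling, were higher, out of 24 other immediate early genes. None of 10 heat shock genes and none of 18 upstream regulators passed 2-fold.

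Detection per nucleus was highest in the 10x library, which had the lowest depth, and otherwise higher in the 3 deep Parse libraries. At least 1 UMI of any of the genes was seen in 64.1% of nuclei of 10x mesPVAT (62.9 to 65.4), 8.88% of Parse mesPVAT, 9.48% of RP fat, 53.6% of cow WAT, 37.8% of taPVAT and 46.2% of BAT. With every nucleus thinned to 200 UMIs the expected shares were 68.2% for 10x mesPVAT, 4.09% for Parse mesPVAT, 7.24% for RP fat, 6.85% for cow WAT, 7.54% for taPVAT and 7.90% for BAT. Nuclei under 200 UMIs were left out of these, 3788 in 10x mesPVAT, 476 in Parse mesPVAT, 1302 in RP fat and 0 in the others. At equal depth 4 Parse libraries lay between 6.85% and 7.90%, the one labelled mesPVAT lay below them, and the 10x library was far above all 5. Of single genes on 10x, Egr1 was seen in 28.8% of nuclei, Jund in 21.2% and Fosb in 18.0%. For Nr4a1 the share was 25.1% in BAT and 19.3% in taPVAT, and 3.48% and 2.99% after thinning, against 0.281% in Parse mesPVAT and 1.36% in RP fat.

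**Figure D3:**
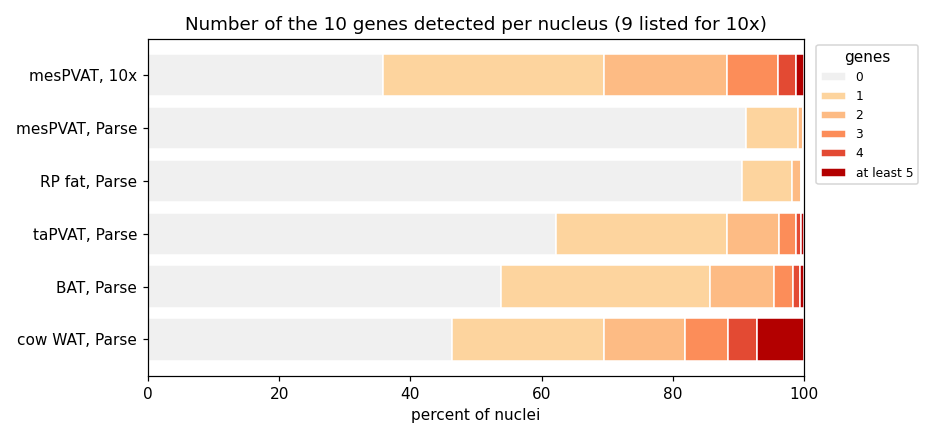
Percent of nuclei (horizontal axis) in each library with 0, 1, 2, 3, 4 or at least 5 of the genes detected. In 10x mesPVAT and cow WAT 30.5% of nuclei held at least 2, against 0.958% in Parse mesPVAT and 1.78% in RP fat.

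Nuclei with several of the genes at once were common in 2 libraries of opposite depth. At least 2 genes were detected in 30.5% of nuclei of 10x mesPVAT, at a median of 224 UMIs, and in 30.5% of cow WAT nuclei, at a median of 8233 UMIs. In cow WAT the 165 nuclei with at least 5 genes, 7.18% of all, held 50.0% of the UMIs of the 10 genes. These nuclei had a median of 20838 UMIs against 3530 over the library, and doublets among them were not removed.

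The level in Fos-positive over Fos-negative nuclei differed between genes. In cow WAT, 454 Fos-positive nuclei were compared with 1843 Fos-negative ones by CPM, which allows for their depth (medians of 7997 and 3024 UMIs). The ratio was 6.31 for Fosb (4.84 to 8.32), 3.47 for Nr4a1 (2.91 to 4.16), 3.00 for Egr1 (2.60 to 3.46) and 2.59 for Atf3 (2.22 to 3.02), but 0.901 for Ier2 (0.611 to 1.32) and 1.39 for Btg2 (0.901 to 2.16). Jun had 1.72 (1.53 to 1.93), Jund 1.67 (1.48 to 1.89) and Junb 1.62 (1.22 to 2.15). Cell class was not held fixed in any library. In cow WAT nuclei with exactly 1 class marker, Fos and Egr1 were both highest in Pdgfra-only nuclei. The part of class and of doublets in these ratios was not tested. In RP fat, 69 Fos-positive nuclei had 7.52 times the Nr4a1 level of the rest (4.32 to 12.7) and 4.30 times the Egr1 level, from 22 and 11 UMIs. In BAT the Nr4a1 ratio was 1.05 (0.826 to 1.32) and in taPVAT 1.65 (1.33 to 2.03). In 10x mesPVAT the ratios were small for every gene, between 0.453 for Btg2 (0.192 to 0.914) and 1.45 for Atf3 (1.15 to 1.82). In BAT, then, the Nr4a1 level of nuclei with and without Fos did not differ beyond counting error.

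The summed level of Ptprb-positive over Plin1-positive nuclei was close to even in the 3 deep Parse libraries with shared nuclei counted on both sides. This double counting draws a ratio towards 1, and the intervals do not allow for it. In Parse mesPVAT the level was higher in Ptprb-positive nuclei. Counting every nucleus with the marker, the ratio was 0.857 (0.729 to 1.00) in 10x mesPVAT, 1.57 (1.16 to 2.14) in Parse mesPVAT, 1.51 (0.965 to 2.37) in RP fat, 1.06 (1.00 to 1.12) in cow WAT, 1.05 (0.957 to 1.14) in taPVAT and 1.02 (0.95 to 1.11) in BAT. Of the genes with enough UMIs, those at least 2-fold higher in Ptprb-positive nuclei were 1 of 9 in 10x mesPVAT (15.6% of all genes tested there), 1 of 2 in Parse mesPVAT (7.24%), 0 of 1 in RP fat (5.63%), 0 of 10 in cow WAT (3.14%), 2 of 10 in taPVAT (8.18%) and 2 of 10 in BAT (9.19%). They were Atf3 on 10x and Egr1 on Parse in mesPVAT, and Egr1 and Ier2 in both taPVAT and BAT. At least 2-fold lower were 2 of 9 in 10x mesPVAT (26% of all genes tested), Fosb at 0.487 (0.300 to 0.751) and Jund at 0.498 (0.303 to 0.778). None was that much lower in Parse mesPVAT (4.34%), RP fat (6.6%), cow WAT (1.11%), taPVAT (1.09%) or BAT (1.5%). Classes overlapped strongly, since Plin1 was found in 50.8% of Ptprb-positive nuclei of taPVAT (median 1487 UMIs), 49.7% in BAT (1765 UMIs) and 19.4% in cow WAT (5891 UMIs). Mixed nuclei and free RNA were not tested for. With at least 2 UMIs of the marker the ratio turned to 0.887 in RP fat. With nuclei of several markers left out, the ratio was 0.817 in 10x mesPVAT, 2.40 in Parse mesPVAT and 1.64 in RP fat. It was then 1.22 in cow WAT, 0.824 in taPVAT and 0.921 in BAT. Under the study's limits on nuclei the ratio in cow WAT turned to 0.934. The values that follow are for nuclei with exactly 1 of the 4 markers.

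**Figure D4:**
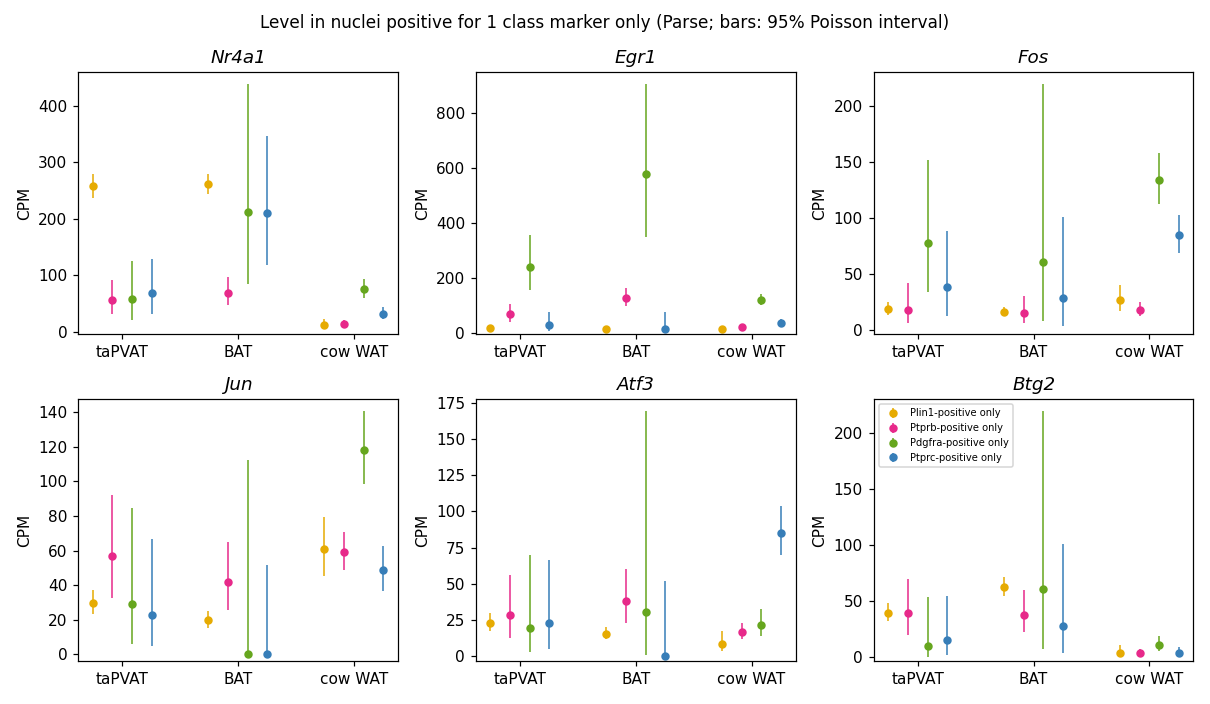
Level in CPM (vertical axis) of 6 of the genes in nuclei with exactly 1 of the 4 class markers (colours), in the 3 deepest Parse libraries, with 95% Poisson intervals. Nr4a1 is high in Plin1-only nuclei of taPVAT and BAT, Egr1 in Pdgfra-only nuclei of all 3 libraries, and Atf3 in Ptprc-only nuclei of cow WAT.

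Nr4a1 in the brown libraries was higher in adipocyte-marked than in endothelial-marked nuclei. In taPVAT it measured 258 CPM (238 to 279) in 1170 Plin1-only nuclei, 56.8 CPM (32.5 to 92.3) in 251 Ptprb-only nuclei, 57.9 CPM in 80 Pdgfra-only nuclei and 68.3 CPM in 154 Ptprc-only nuclei. In BAT it measured 261 CPM (244 to 279) in 1440 Plin1-only nuclei and 69.5 CPM (47.8 to 97.6) in 335 Ptprb-only nuclei. The 213 CPM and 210 CPM of Pdgfra-only and Ptprc-only nuclei of BAT rested on 3 and 6 positive nuclei. The Ptprb over Plin1 ratio was 0.266 (0.182 to 0.376) in BAT and 0.220 (0.125 to 0.361) in taPVAT. Nr4a1 was detected in 26.4% of Plin1-only and 4.38% of Ptprb-only nuclei of taPVAT, or 4.39% and 1.09% when thinned to 200 UMIs. In Plin1-only nuclei of the white rat libraries, Nr4a1 was 7.79 CPM in mesPVAT (3 UMIs) and 73.4 CPM in RP fat (6 UMIs), both below the brown ones. Cow WAT was different, with 12.8 CPM in Plin1-only and 75.8 CPM (60.2 to 94.3) in Pdgfra-only nuclei, a ratio of 5.90 (3.13 to 12.3).

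Egr1 had a different order across the same nuclei. In BAT it measured 15.9 CPM (12.0 to 20.7) in Plin1-only, 126 CPM (96.4 to 163) in Ptprb-only, 578 CPM (348 to 903) in Pdgfra-only and 14.0 CPM (1 UMI) in Ptprc-only nuclei. The Pdgfra value came from 19 UMIs in 7 of 23 nuclei. In taPVAT the levels were 18.2 CPM, 67.5 CPM, 241 CPM and 30.4 CPM, and in cow WAT 14.0 CPM, 20.7 CPM, 119.8 CPM and 36.8 CPM. Egr1 was thus highest in Pdgfra-only nuclei of all 3 libraries, with a Pdgfra over Plin1 ratio of 8.55 (4.73 to 17.0) in cow WAT, 36.3 (20.3 to 62.1) in BAT and 13.3 (7.79 to 22.2) in taPVAT. The Ptprb over Plin1 ratio was 7.93 (5.41 to 11.7) in BAT and 3.71 (2.05 to 6.49) in taPVAT, and the interval included 1 in cow WAT.

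Ier2 was also higher in Ptprb-only nuclei. Its Ptprb over Plin1 ratio was 8.59 (3.55 to 21.2) in BAT and 4.30 (1.80 to 9.62) in taPVAT. Jun was also higher in Ptprb-only nuclei, 2.11 (1.21 to 3.51) in BAT and 1.91 (1.04 to 3.32) in taPVAT, but not in cow WAT at 0.975 (0.698 to 1.38). Btg2 leaned to Plin1-only nuclei in BAT, with a Ptprb over Plin1 ratio of 0.609 (0.354 to 0.985), and was even in taPVAT at 0.985 (0.476 to 1.84). Junb in taPVAT was 6.79 times higher in Pdgfra-only than in Plin1-only nuclei (2.84 to 14.6), from 9 UMIs.

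Among cow WAT nuclei with exactly 1 class marker, stromal and leukocyte-marked nuclei had the highest levels. Nuclei with several markers, 23.5% of the library with 9436405 of its 16827260 UMIs, and the 33.5% with none are outside this order. The summed level was 600.1 CPM (555 to 648) in Pdgfra-only, 411 CPM (375 to 449) in Ptprc-only, 222 CPM (202 to 243) in Ptprb-only and 182 CPM (155 to 213) in Plin1-only nuclei. Fos measured 134 CPM in Pdgfra-only and 84.5 CPM in Ptprc-only nuclei against 26.9 CPM in Plin1-only and 17.8 CPM in Ptprb-only nuclei. Atf3 was highest in Ptprc-only nuclei at 85.4 CPM (69.6 to 104), which is 10.4 times the Plin1-only level (4.89 to 26.6). Jun was 118 CPM in Pdgfra-only nuclei and between 48.6 CPM and 60.7 CPM in the other 3. These 4 classes had similar median depth, from 3461.5 to 4081 UMIs.

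**Figure D5:**
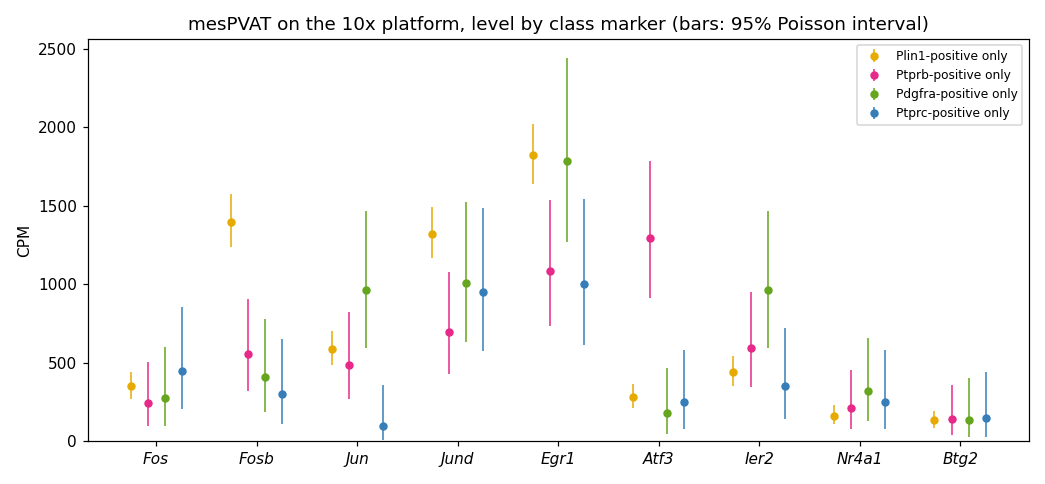
Level in CPM (vertical axis) of the 9 genes listed on 10x in mesPVAT nuclei with exactly 1 of the 4 class markers (colours), with 95% Poisson intervals. Atf3 is highest in Ptprb-only nuclei and Fosb in Plin1-only nuclei, while Fos, Nr4a1 and Btg2 overlap between classes.

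The 10x mesPVAT library had high levels in all classes and still showed gene-specific differences. Atf3 measured 1294 CPM (911 to 1783) in 90 Ptprb-only nuclei and 283 CPM (213 to 368) in 653 Plin1-only nuclei, a ratio of 4.57 (2.93 to 7.06). Fosb went the other way, at 1400 CPM in Plin1-only, 559 CPM in Ptprb-only, 412 CPM in Pdgfra-only and 300.2 CPM in Ptprc-only nuclei. Its Ptprb over Plin1 ratio was 0.400 (0.225 to 0.661). Jund (0.529, 0.318 to 0.834) and Egr1 (0.595, 0.398 to 0.860) were also lower in Ptprb-only than in Plin1-only nuclei. Ier2 was highest in 47 Pdgfra-only nuclei at 962 CPM, 2.17 times the Plin1-only level (1.28 to 3.53). Jun was lowest in 52 Ptprc-only nuclei, with 2 UMIs and a ratio of 0.171 to Plin1-only nuclei (0.0204 to 0.631). In this library 85.4% of nuclei had none of the 4 markers. The share was 81.5% in RP fat, 62.3% in Parse mesPVAT, 33.5% in cow WAT, 20.1% in taPVAT and 14.7% in BAT. In the white rat libraries the classes thus describe a minority of the nuclei.

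The 5 genes most like the summed level were Phf12 (Pearson r of 0.906), Prkra (0.883), Creb1 (0.868), Serinc1 (0.868) and Med27 (0.860). The measure was log2(CPM + 10) over 16 values, 4 classes in 4 rat Parse libraries, among 5278 genes with at least 500 UMIs. Creb1 encodes the CRE-binding factor CREB. The 16 values share libraries and depth, so the correlations are descriptions only. Within the members r with their own sum ran from -0.0953 for Atf3 to 0.805 for Egr1.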

How the data were processed

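Single-nucleus RNA was counted in 6 libraries, 1 per condition and grouped by their labels. For the Parse libraries the authors ran split-pipe per species (GRCr8 for rat, ARS-UCD1.3 for cow) and deposited UMI counts per gene and nucleus, with 2 sublibraries per sample. For the 10x library the deposited counts are those of barcodes called as cells by Cell Ranger (cellranger 7.1.0 in the submitters' processing notes, which also list FastQC and Scanpy). Rnor_6.0 is the genome that the supplement names. Of its gene identifiers 77.4% are in the rat Parse table. Kits that prime differently and counts that include introns can shift short against long genes. No normalization had been applied. Labels were kept for Parse mesPVAT and RP fat although they are in doubt, because the study orders their genes per nucleus the other way.

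All deposited barcodes were used and no doublets were removed. Counts were summed over nuclei and scaled to CPM. Intervals (95%) are exact Poisson for levels, exact binomial for shares and exact conditional binomial for ratios. UMIs within a nucleus are not independent, so the intervals are too narrow where few nuclei hold many UMIs. A gene at 0 on 1 side was set to 3 counts. Genes with at least 20 UMIs over both sides were compared, and a gene was called when past 2-fold. Between platforms genes were joined by symbol where it was unique in both gene tables, and otherwise by identifier. Shares at equal depth are hypergeometric expectations at 200 UMIs. No test was made, as there is 1 library per condition. The ratio and the thinning were checked on simulated data. The members and lists were chosen with earlier results of these data known. All 10 members are named, with at most the 3 largest ratios per direction of each list and the 5 genes most like the summed level. From the lists, 30 of 32 other immediate early genes and 11 of 12 heat shock genes could be compared in rat. Promoters are from RefSeq (GRCr8). Alternatives were the study's limits on nuclei (100 to 15000 UMIs, at most 4500 genes, at most 3% mitochondrial UMIs and 5 median absolute deviations), a minimum of 500 UMIs, other scalings, thresholds and class rules, and libraries or sublibraries left out or the white Parse labels exchanged, these last chosen after seeing the data. Python 3.11.15, numpy 2.4.6, scipy 1.17.1, pandas 2.3.3 and matplotlib 3.10.9 were used.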

Additional observations from a re-analysis of the deposited data

Results flagged for a closer look

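Some contrasts between classes pointed opposite ways in 2 libraries, each with a 95% counting interval that excluded a ratio of 1, in nuclei with exactly 1 class marker. The difference between libraries itself was not tested, and the libraries differ in depot, species or platform.

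Egr1 was 7.93 times higher in Ptprb-only than Plin1-only nuclei of BAT and had a ratio of 0.595 in 10x mesPVAT. Its Ptprc over Plin1 ratio was 2.63 in cow WAT and 0.549 in 10x mesPVAT. Jund had a Ptprb over Plin1 ratio of 2.5 in BAT and 0.529 in 10x mesPVAT. For Fosb the Ptprc over Plin1 ratio was 2.61 in cow WAT and 0.215 in 10x mesPVAT.

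Nr4a1 had a Pdgfra over Plin1 ratio of 5.90 in cow WAT and 0.225 in taPVAT, and a Ptprc over Plin1 ratio of 2.48 in cow WAT and 0.265 in taPVAT. Atf3 had a Ptprc over Ptprb ratio of 5.25 in cow WAT and 0.193 in 10x mesPVAT.

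The summed level followed suit. Its Ptprb over Plin1 ratio was 2.40 in Parse mesPVAT and 0.817 in 10x mesPVAT, its Ptprc over Plin1 ratio 2.26 in cow WAT and 0.585 in 10x mesPVAT, and its Ptprc over Ptprb ratio 1.85 in cow WAT and 0.716 in 10x mesPVAT.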

How the results depend on the processing

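No paired analysis was possible because each condition has 1 library. Of 102 alternative values, 60 stayed within the counting interval or within 1.5 times a count, 40 moved and 2 reversed, and the cause was not tested. Some of these outcomes were fixed in advance. All 2297 nuclei of cow WAT had at least 500 UMIs, so that minimum could not change its values. Nuclei richest in UMIs of the 10 genes were picked by those UMIs, so a fall without them was largely built in. Of the 2 reversals, 1 is the exchange of the white Parse labels, which inverts the ratio of mesPVAT over RP fat. With nuclei of at least 500 UMIs the summed level was 6396 CPM in 10x mesPVAT and 598 CPM in RP fat, and the share of nuclei with any of the genes was 91.6%, 15.5%, 27.1% and 41.9% in 10x mesPVAT, Parse mesPVAT, RP fat and taPVAT. With the most abundant gene left out of the total, the level was 7164 CPM in 10x mesPVAT, 439 CPM in cow WAT, 490.4 CPM in taPVAT and 500.2 CPM in BAT. Without the 1% of nuclei richest in these UMIs it was 6697 CPM, 159.9 CPM, 330.5 CPM, 394 CPM, 408 CPM and 350.5 CPM in 10x mesPVAT, Parse mesPVAT, RP fat, taPVAT, BAT and cow WAT. With the study's limits on nuclei it was 409 CPM in cow WAT, and the share with any of the genes was 66.6% in 10x mesPVAT and 48.4% in cow WAT. Thinning gave shares of 68.2%, 4.09%, 7.24%, 7.54%, 7.90% and 6.85% in the order of the libraries above.

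The number of genes past the fold was 1 at 1.5-fold for taPVAT over BAT. For mesPVAT over RP fat it was 3 under median-of-ratios scaling, 3 at 3-fold and 3 in sublibrary 2 alone, against 5. With the labels of the white Parse libraries exchanged it was 5 in the opposite direction. For white over brown it was 8 under median-of-ratios scaling, 7 at 1.5-fold, 2 at 3-fold and 2 without RP fat, against 4.

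The Ptprb over Plin1 ratio of the summed level was 0.677 in 10x mesPVAT, 0.887 in RP fat and 1.17 in cow WAT with at least 2 UMIs of the marker. With nuclei of several markers left out it was 2.40 in Parse mesPVAT, 1.22 in cow WAT, 0.824 in taPVAT and 0.921 in BAT. Under the study's limits it turned to 0.934 in cow WAT. Depth limits the white rat libraries most, where Fos rests on 26 UMIs in Parse mesPVAT and 84 in RP fat.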

Other observations

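The lists around the 10 genes had their own levels. Summed over the list, other immediate early genes reached 8845 CPM in 10x mesPVAT and between 639 CPM (RP fat) and 812 CPM (taPVAT) on Parse. Heat shock and chaperone genes reached 2343 CPM in 10x mesPVAT, 487 CPM in Parse mesPVAT, 481 CPM in RP fat, 788 CPM in taPVAT and 794 CPM in BAT, and cow WAT had 216 CPM with 10 of the 12 listed. Regulators upstream of the immediate early genes were more even, at 1556 CPM in 10x mesPVAT and 846 CPM (RP fat) to 1635 CPM (cow WAT) on Parse.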
